A study of Mus musculus with 34 samples.

Results

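The 40 genes described here carry out DNA replication and mitosis, and their RNA was followed in 30 libraries of mouse embryonic stem cells (ESCs) that were mutant for Handsdown (Hdn), a long non-coding RNA, or wild type. They were chosen by name, 20 for replication and 20 for mitosis, out of 52636 genes in the deposited table, and all 40 were found there. The replication genes are the helicase subunits Mcm2 to Mcm7, the loading and activating factors Cdc45, Cdc6, Cdt1, Gins1 and Gins2, the sliding clamp Pcna, the nucleotide synthesis enzymes Rrm1, Rrm2 and Tyms, and the cyclins Ccne1, Ccne2, Ccnd1, Ccnd2 and Ccnd3. The mitosis genes are Mki67, Top2a, Bub1, Bub1b, Dlgap5, Ccnb1, Ccnb2, Ccna2, Cdk1, Cdc20, Aurka, Aurkb, Plk1, Cenpe, Cenpf, Kif11, Kif20a, Tpx2, Nusap1 and Birc5. The mutants are called Hdn null ESCs and the wild type F1(G4), and both carry the strain label 129S2/C57Bl6J. Each genotype was sampled as undifferentiated ESCs, freed of feeder cells and kept in 2i medium, and on days 3, 4, 5 and 6 of differentiation, in which embryoid bodies formed in hanging drops were grown on a fibronectin coat without serum, under 20 ng/mL BMP4. Each of the 10 groups held 3 libraries, so n = 3 for every mean ± SD below. The labels give neither the sequence change of the mutant, nor the number of mutant clones, nor whether replicates are separate cultures, so p-values measure the spread between these libraries, which may be technical. The design text speaks of Brachyury mutants and one protocol field of dissected embryonic hearts, neither of which stands in the titles, and the groups follow the titles and genotype labels.

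A dividing cell copies its DNA in S phase and separates the copies in mitosis, and the genes for these tasks are switched on in turn. In the textbook account, D-type and E-type cyclins with their kinases inactivate the retinoblastoma proteins, which frees E2F factors to transcribe replication genes. Later in the cycle the mitosis genes are transcribed through promoter elements called CHR and CCAAT boxes, and cyclin B with the kinase Cdk1 drives entry into mitosis. Mouse ESCs are known for rapid cycles with a short G1 phase and many cells in S phase.

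Promoter windows are shown for 4 genes, chosen with motifs and levels in view, because they differed between stages or genotypes and hold several matches. RefSeq windows in GRCm38.p6, from 250 bases before to 50 bases after the start, were given for 29 of the 40 genes, and motifs were searched on both strands. The letters were TTTCCCGC, TTTCGCGC, TTTGCCGC and TTTGGCGC for E2F, TTTGAA and TTCGAA for CHR, and CCAAT for the CCAAT box. An E2F match was found in 6 of 14 replication genes and 1 of 15 mitosis genes, Cdk1, against 2.6% of 27025 genes with a window. A CHR match was found in 3 of 14 replication genes and 11 of 15 mitosis genes, against 21.7% of all genes. A CCAAT box was found in 10 of 14 replication genes and 13 of 15 mitosis genes, against 41.1% of all genes. Mcm3 has its window at chr1:20820263-20820562 on the minus strand, Mcm5 at chr8:75109259-75109558 on the plus strand, Top2a at chr11:99024140-99024439 on the minus strand and Mki67 at chr7:135716330-135716629 on the minus strand. Each sequence runs 5′ to 3′ along the gene's strand, and capitals mark the matches.
Mcm3: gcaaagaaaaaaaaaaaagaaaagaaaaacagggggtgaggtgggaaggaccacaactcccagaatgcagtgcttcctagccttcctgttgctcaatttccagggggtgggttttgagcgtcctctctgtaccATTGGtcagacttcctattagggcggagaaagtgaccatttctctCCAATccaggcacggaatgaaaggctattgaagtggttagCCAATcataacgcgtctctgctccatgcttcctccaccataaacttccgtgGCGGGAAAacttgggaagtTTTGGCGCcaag
Mcm5: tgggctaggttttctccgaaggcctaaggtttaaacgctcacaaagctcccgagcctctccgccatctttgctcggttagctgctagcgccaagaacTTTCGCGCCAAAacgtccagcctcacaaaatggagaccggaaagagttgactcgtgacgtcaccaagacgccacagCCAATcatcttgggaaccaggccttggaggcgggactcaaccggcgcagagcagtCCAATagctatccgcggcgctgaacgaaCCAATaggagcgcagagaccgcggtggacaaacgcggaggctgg
Top2a: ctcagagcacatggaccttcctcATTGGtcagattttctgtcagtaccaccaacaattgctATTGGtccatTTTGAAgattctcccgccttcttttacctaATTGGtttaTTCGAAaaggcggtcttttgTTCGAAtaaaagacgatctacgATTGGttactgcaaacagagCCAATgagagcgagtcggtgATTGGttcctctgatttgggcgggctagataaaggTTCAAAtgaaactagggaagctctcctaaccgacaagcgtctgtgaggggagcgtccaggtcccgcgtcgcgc
Mki67: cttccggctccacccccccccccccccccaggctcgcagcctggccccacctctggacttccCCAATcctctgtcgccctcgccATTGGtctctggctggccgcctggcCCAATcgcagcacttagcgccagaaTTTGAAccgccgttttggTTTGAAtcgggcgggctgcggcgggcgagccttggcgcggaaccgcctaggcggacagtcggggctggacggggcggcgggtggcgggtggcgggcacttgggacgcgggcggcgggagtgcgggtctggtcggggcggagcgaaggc
Mcm3 and Mcm5 hold 2 E2F matches and 3 CCAAT boxes each and no CHR match, and the E2F matches of Mcm5 overlap. Top2a holds 4 CHR matches and 6 CCAAT boxes, and Mki67 holds 2 CHR matches and 3 CCAAT boxes, with no E2F match in either. No window was given for Mcm4, Gins1, Gins2, Ccne2, Ccnd1, Ccnd2, Dlgap5, Ccna2, Aurkb, Kif20a and Tpx2. A match of letters describes the window and was not tested as a binding site.

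Levels below are in scaled RPKM, the authors' RPKM (read number over gene length and library total) divided by a size factor per library. Read totals recovered from the table ran from 43339057 to 68448589 reads per library. Hdn had 0 reads in all mutant and all wild-type ESC libraries, so it does not check the genotype labels there. It had 0 reads in mutant and 0 to 4 in wild-type libraries on day 3, 0 in mutant and 1 to 9 in wild-type libraries on day 4, 0 to 1 in mutant and 19 to 29 in wild-type libraries on day 5, and 0 to 8 in mutant and 37 to 240 in wild-type libraries on day 6. The summed level of 8 pluripotency markers was 3573 to 4549 in mutant ESCs and 4862 to 5330 in wild-type ESCs, and most of it was Dppa5a. Without Dppa5a, which was singled out after its values were seen, the other 7 summed to 1323 to 1349 in mutant ESCs and 1316 to 1397 in wild-type ESCs, and Zfp42 was called higher in mutant ESCs. Transcripts of red blood cells and mature heart muscle appeared in mutant day 4 replicate 3, mutant day 5 replicate 3 and all mutant day 6 libraries, whose summed red-cell markers were 73.1 to 720, and wild-type day 6 replicate 3 had 49.3. The other libraries had red-cell sums between 0.0575 and 4.83. In bulk libraries, fewer cells of a type and less RNA per cell cannot be told apart. All 40 genes passed the filter of 1 scaled RPKM in at least 3 libraries, and all but Ccnd2, Ccne2, Mki67, Cenpe and Cenpf reached 1 in every library. A gene was called at a limma adjusted p under 0.05, over 14196 genes, provided that the log2 change was 1 or more in size. Log2 changes are of scaled RPKM plus 0.5 and understate the change of genes near or below that level.

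In undifferentiated ESCs, mutant cells had more RNA of 8 of the 20 mitosis genes than wild-type cells, and no mitosis gene was called lower. Over all genes tested, 8.55% were called higher and 3.13% lower. The 8 were Kif11, Cenpf, Mki67, Bub1, Dlgap5, Top2a, Cenpe and Nusap1, with log2 changes between 1.52 and 2.06.
Kif11, the kinesin that pushes spindle poles apart, stood at 11.5, 20.2 and 18.7 scaled RPKM in mutant ESCs, against 2.87, 3.08 and 4.91 in wild-type ESCs. The groups did not overlap, and the log2 change was 2.06 ± 0.18 (SE; adjusted p = 3.97e-09, limma). With the median change of genes within 2.5 Mb removed from every gene, Kif11 had 1.1 and was still called. Bub1, a kinase of the spindle checkpoint, stood at 8.76, 17.5 and 15.1 in mutant ESCs and 2.93, 2.77 and 4.2 in wild-type ESCs. Every mutant library again lay above every wild-type library, with a log2 change of 1.88 ± 0.17 (SE; adjusted p = 9.27e-09, limma). Top2a, the topoisomerase that untangles sister chromatids, stood at 29.9, 50.3 and 47.7 in mutant ESCs and 10.6, 10.7 and 14.8 in wild-type ESCs, without overlap. Its log2 change was 1.76 ± 0.15 (SE; adjusted p = 3.58e-09, limma). Dlgap5, a microtubule-binding spindle protein, stood at 17.3, 22.5 and 22.5 in mutant ESCs and 5.62, 5.79 and 5.72 in wild-type ESCs, also without overlap. Its log2 change was 1.77 ± 0.14 (SE; adjusted p = 1.88e-09, limma). In each of these 4 genes mutant replicate 1 had the lowest level of the mutant libraries.
Among the other 4, Mki67, which codes for the proliferation marker Ki-67, averaged 3.38 ± 1.13 in mutant ESCs and 0.522 ± 0.0936 in wild-type ESCs. The kinetochore gene Cenpe averaged 1.93 ± 0.819 in mutant ESCs and 0.228 ± 0.0320 in wild-type ESCs. Cenpf, also of the kinetochore, averaged 2.49 ± 1.02 in mutant ESCs and 0.253 ± 0.0208 in wild-type ESCs. These 3 lay under 1 scaled RPKM in all wild-type ESC libraries, and above it in all mutant ESC libraries. Nusap1, which codes for a spindle-associated protein, averaged 15.8 ± 6.37 in mutant ESCs and 4.85 ± 0.710 in wild-type ESCs. All 8 calls were kept in each alternative in which the gene was tested.

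**Figure D1:**
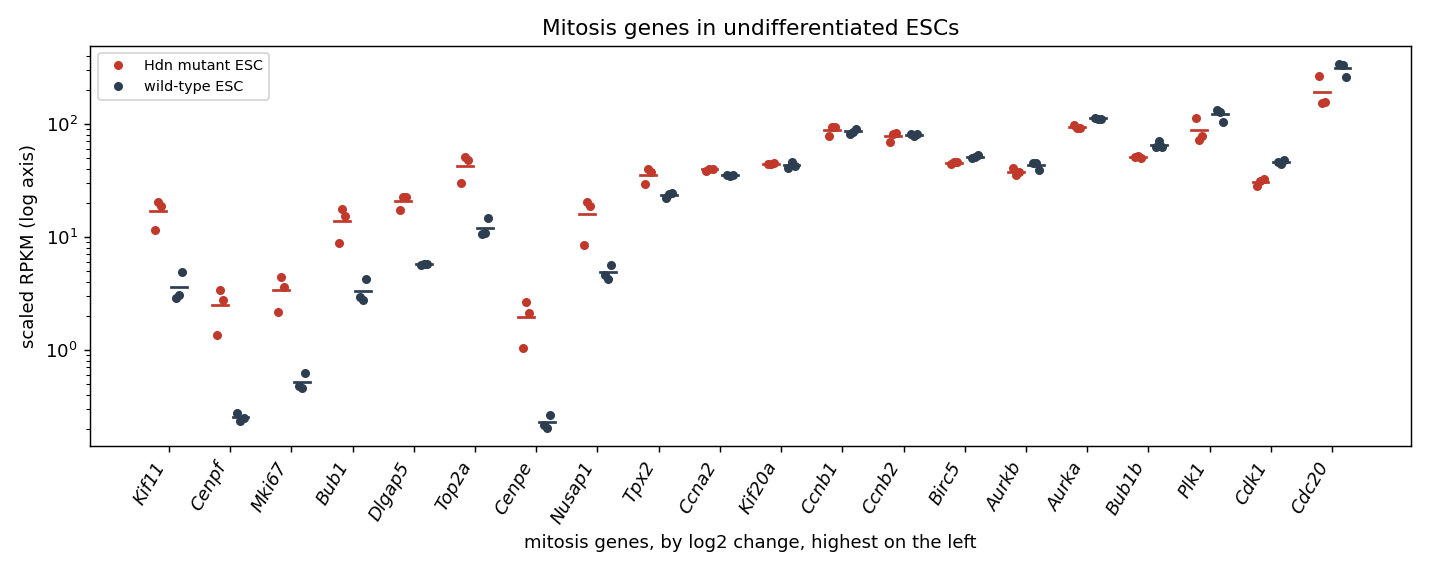
Level of each mitosis gene in the ESC libraries, in scaled RPKM on a log axis, with 1 point per library and a line at the mean of 3, mutant on the left of each pair and genes in order of log2 change. The 8 genes from Kif11 to Nusap1 have all mutant points above all wild-type points, and so do Tpx2 and Ccna2, which were not called. Birc5, Aurka, Bub1b and, near the right end, Cdk1 have all mutant points below. The share of all genes without overlap was not counted.

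The remaining 12 mitosis genes were not called in ESCs, and some were lower in mutants by adjusted p alone, whatever the size of the change. By that rule 9 mitosis genes passed as higher and 4 as lower, where 22.4% and 23.1% of all genes did. Cdk1, the kinase of mitotic entry, stood at 28, 31.5 and 32.2 in mutant ESCs and 45.6, 44.2 and 47.9 in wild-type ESCs, without overlap (log2 change -0.58, limma adjusted p = 0.000532). Cdc20, an activator of the anaphase-promoting complex, stood at 267, 152 and 155 in mutant ESCs and 337, 333 and 257 in wild-type ESCs (log2 change -0.73, limma adjusted p = 0.00851), and here mutant replicate 1 overlapped with wild type. The other 2 that passed as lower were Bub1b and Aurka, at -0.35 and -0.25. The cyclins Ccnb1, Ccnb2 and Ccna2 had log2 changes of 0.04, -0.06 and 0.17 and did not pass.

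Gene length and the mitochondrial share moved with the ESC result. The 8 mitosis genes called higher had a median length of 7.64 kb in the authors' gene models, against 3.6 kb for the 12 not called. Over all genes tested, 14.7% of genes of 6.27 kb or longer were called higher in mutant ESCs and 6.55% of genes up to 1.33 kb. Across the 40 genes Spearman's rho of log2 change with length was 0.25, and across 14196 genes 0.14, as a description over genes that share their libraries. With a trend on gene length removed, 8 mitosis genes were called higher. Mitochondrially encoded genes took 3.02%, 6.39% and 6.22% of the RPKM in mutant ESCs, against 1.67%, 1.46% and 2.15% in wild-type ESCs, and the part of this share in the result was not tested.

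Among the replication genes in ESCs, 2 were called lower in mutants, Mcm5 and Ccnd3, and 1 higher, Ccne2. Over all genes tested, 3.13% were called lower and 8.55% higher. By adjusted p alone 12 passed as lower and 3 as higher, against 23.1% and 22.4% of all genes. The median log2 change of the replication genes was -0.45 and that of the mitosis genes 0.11, beside -0.10 for all genes tested.
Mcm5, a subunit of the helicase that unwinds DNA at the fork, stood at 256, 186 and 180.2 in mutant ESCs and 449, 449 and 360.3 in wild-type ESCs. The groups did not overlap, and the log2 change was -1.03 ± 0.15 (SE; adjusted p = 7.01e-06, limma). In 10 of 22 alternatives its change was under the size needed for a call. Cyclin D3 (Ccnd3), which drives G1 progression with Cdk4 and Cdk6, stood at 24.6, 17.2 and 17.2 in mutant ESCs and 52.2, 49.6 and 39.2 in wild-type ESCs. It was lower without overlap, with a log2 change of -1.24 ± 0.18 (SE; adjusted p = 4.91e-06, limma). Cyclin E2 (Ccne2), which acts with Cdk2 at the start of S phase, stood at 1.79, 3.60 and 2.96 in mutant ESCs and 0.604, 0.670 and 1.05 in wild-type ESCs. It was higher without overlap, with a log2 change of 1.34 ± 0.27 (SE; adjusted p = 0.000316, limma). Its paralog Ccne1 stood at 42.5, 32.3 and 34.5 in mutant ESCs and 68.9, 63.6 and 61.9 in wild-type ESCs, and passed as lower by adjusted p alone (log2 change -0.83, limma adjusted p = 8.95e-07).
The 6 subunits of the Mcm2-7 ring did not move alike in ESCs. Mcm4 stood at 55.4, 87.8 and 85.6 in mutant ESCs and 38.7, 38.8 and 36.9 in wild-type ESCs, and passed as higher by adjusted p alone (log2 change 0.96, limma adjusted p = 1.64e-05). Mcm2, Mcm3, Mcm5 and Mcm7 all passed as lower, with log2 changes between -1.03 and -0.50, and Mcm6 had -0.07 (limma adjusted p = 0.711). Cdc45, which joins the ring in the active helicase, stood at 36.6, 36.3 and 37.0 in mutant ESCs and 67.1, 67.3 and 64.9 in wild-type ESCs. These groups lay far apart, although the log2 change of -0.85 (limma adjusted p = 7.96e-09) was under the size of a call.
Cdt1, which loads the ring onto origins, stood at 125, 49.3 and 53.1 in mutant ESCs and 149, 147 and 115 in wild-type ESCs. Mutant replicate 1 lay among the wild-type libraries and replicates 2 and 3 below them. Without mutant ESC replicate 1, 4 replication genes were called lower and 2 higher, and 1 mitosis gene was called lower. Without wild-type ESC replicate 3, 4 replication genes were called lower, and without any one of the other 4 ESC libraries 1 was.

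**Figure D2:**
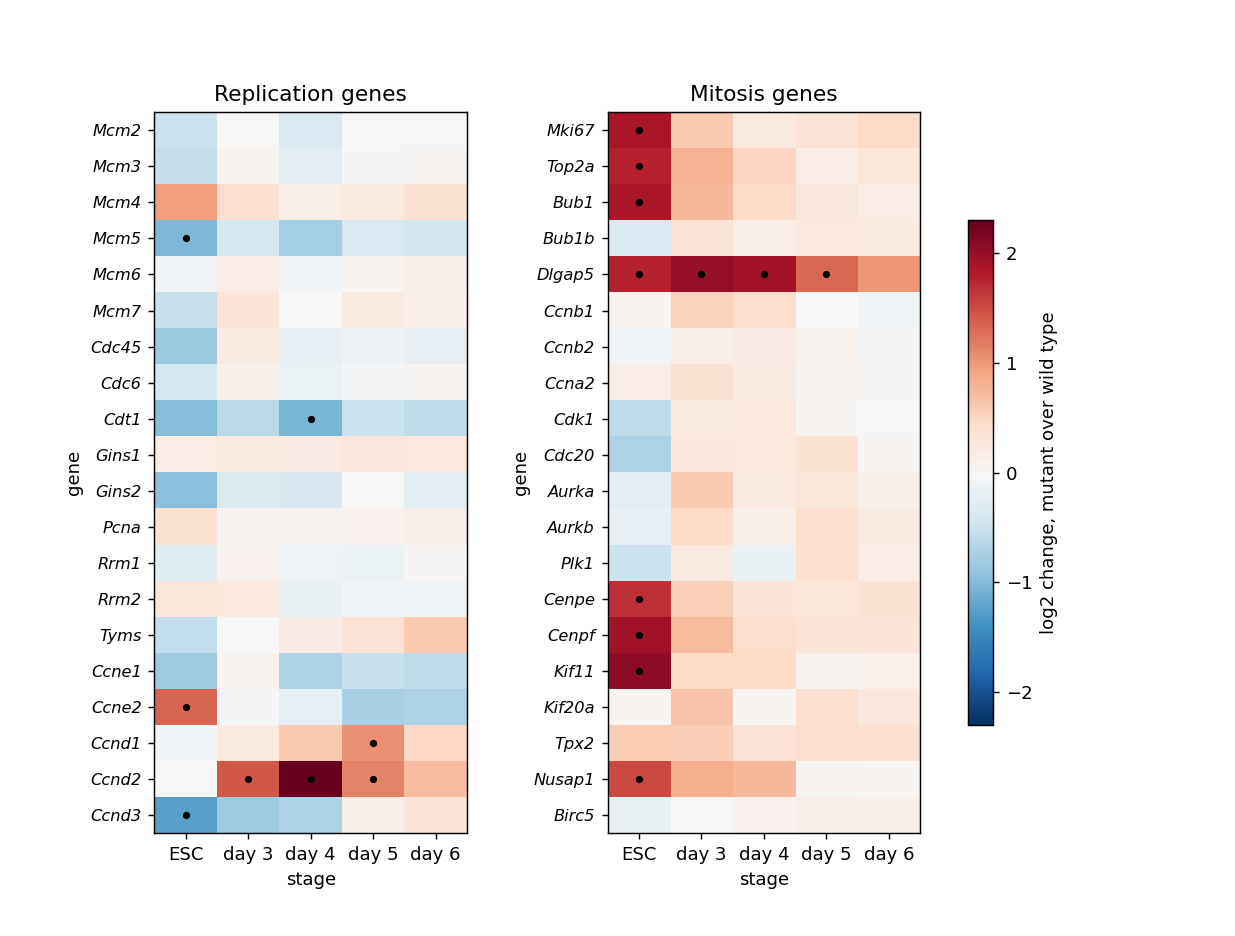
Log2 change of each gene, mutant over wild type, at the 5 stages, with red for higher and blue for lower in mutants and a black dot on called changes. Replication genes are on the left and mitosis genes on the right. The ESC column of the mitosis panel holds 8 dots, and Dlgap5 and Ccnd2 are the genes with dots at 3 or more stages.

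On day 3 of differentiation 1 replication gene, Ccnd2, and 1 mitosis gene, Dlgap5, were called higher in mutants and none lower, where 0.873% of all genes were called higher and 2.48% lower. By adjusted p alone 10 of 20 mitosis genes passed as higher and 0 as lower, against 6.2% and 10.1% of all genes. Of the replication genes 1 passed as higher and 1, Ccnd3, as lower. The median log2 change was 0.09 for the replication genes and 0.54 for the mitosis genes, beside -0.01 for all genes, and 19 of 20 mitosis genes had a positive value.
Top2a stood at 39.3, 39.9 and 38.0 in mutant cells and 21.7, 22.2 and 22.5 in wild-type cells on day 3, without overlap (log2 change 0.81, limma adjusted p = 0.000542). Nusap1 stood at 28.1, 29.3 and 30.0 in mutant cells and 16.6, 16.4 and 15.0 in wild-type cells (log2 change 0.84, limma adjusted p = 0.00373). Aurka, a kinase of the spindle poles, stood at 98.8, 95.3 and 99.8 in mutant cells and 59.2, 65.4 and 69.7 in wild-type cells (log2 change 0.60, limma adjusted p = 8.13e-05). In all 3 genes each mutant library lay above each wild-type library. Bub1, Cenpf, Tpx2, Ccnb1, Aurkb and Ccna2 passed in the same way, with log2 changes between 0.34 and 0.74. None of these 9 reached the size of a call.
Markers of cell state differed between the same libraries. Of 8 pluripotency markers 4, Zfp42, Dppa5a, Esrrb and Klf4, were called lower in mutants on day 3. The sum of all 8 was 489 to 586 in mutant and 995 to 1517 in wild-type libraries. Without Dppa5a the other 7 summed to 343 to 370 in mutant and 240 to 297 in wild-type libraries. Pou5f1 stood at 198 to 229 in mutant and 149 to 161 in wild-type libraries, and Nanog at 105 to 113 in mutant and 55.6 to 77.5 in wild-type libraries. Of 8 mesoderm markers Hand1 was called lower, at 55.3 to 67.6 in mutant and 133 to 201 in wild-type libraries, and the other 7 had positive log2 changes and were not called. The mesoderm sum was 137 to 295 in mutant and 145 to 281 in wild-type libraries, and without Hand1 81.8 to 227 in mutant and 12 to 133 in wild-type libraries. Hand1, like Dppa5a, was left out with its values known. The part of cell state in the result was not tested.

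On day 4 Cdt1 was called lower and Ccnd2 higher among the replication genes, and Dlgap5 higher among the mitosis genes, where 2.37% of all genes were called higher and 2.81% lower. By adjusted p alone 2 replication genes passed as higher and 4 as lower, and 5 mitosis genes as higher and 0 as lower, against 11.2% and 10.8% of all genes. Cdt1 stood at 49.5, 49.3 and 25.3 in mutant cells and 82.5, 81.8 and 84.3 in wild-type cells, without overlap and with a log2 change of -1.06 ± 0.26 (SE; adjusted p = 0.00494, limma). Mutant replicate 3, which held heart and red-cell transcripts, was the lowest. Without it Cdt1 had a log2 change of -0.74, and it was no longer called.
On day 5 Ccnd1 and Ccnd2 were called higher among the replication genes and Dlgap5 among the mitosis genes, where 2.42% of all genes were called higher and 3.59% lower. By adjusted p alone 2 replication genes passed as higher and 1 as lower, and 3 mitosis genes as higher, against 9.92% and 10.9% of all genes. Without wild-type day 5 replicate 2, Ccnd1 had 0.85 and Ccnd2 0.99, and neither was called.
On day 6 no gene of either kind was called in limma, where 3.66% of all genes were called higher and 4.12% lower. By adjusted p alone 3 replication genes passed as higher and 2 as lower, and 2 mitosis genes, Dlgap5 and Tpx2, as higher, against 12.3% and 14.1% of all genes. At an unadjusted p under 0.05, 4 replication genes were on the higher and 5 on the lower side, and 3 mitosis genes were on the higher side, where 16.9% of all genes were on the higher and 18.7% on the lower side. With voom on derived reads 1 mitosis gene was called higher. Dlgap5 stood at 19.3, 16.6 and 14.2 in mutant cells and 8.38, 8.63 and 7.35 in wild-type cells on day 6, without overlap (log2 change 0.99, limma adjusted p = 1.25e-05). All mutant day 6 libraries held heart and red-cell transcripts, whose part in these values was not tested.

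Of the D cyclins, Ccnd2 was called higher in mutants on days 3, 4 and 5 and Ccnd1 on day 5, while Ccnd3 on day 3 was lower by adjusted p alone. Cyclin D2 was near 0 in ESCs, at 0.114, 0.0540 and 0.0590 in mutant libraries and 0.0412, 0.0807 and 0.0853 in wild-type libraries. On day 3 it stood at 3.45, 3.76 and 2.94 in mutant cells and 1.05, 0.883 and 0.888 in wild-type cells, a log2 change of 1.42 ± 0.20 (SE; adjusted p = 1.8e-05, limma). On day 4 it stood at 6.47, 6.75 and 11.6 in mutant cells and 1.85, 0.885 and 1.07 in wild-type cells, a log2 change of 2.3 ± 0.20 (SE; adjusted p = 1.78e-08, limma). On both days every mutant library lay above every wild-type library.
On day 5 Ccnd2 stood at 6.69, 6.72 and 8.22 in mutant cells and 3.53, 2.38 and 3.18 in wild-type cells, a log2 change of 1.14 ± 0.20 (SE; adjusted p = 0.000166, limma). On day 6 it stood at 6.95, 4.81 and 6.67 in mutant cells and 4.37, 3.04 and 3.25 in wild-type cells, and passed by adjusted p alone (log2 change 0.71, limma adjusted p = 0.00911). The groups did not overlap on either day, and the ranges of mutant day 3 and wild-type day 6 did.
Cyclin D1 (Ccnd1) stood at 8.85, 9.81 and 9.5 in mutant cells and 5.23, 3.08 and 4.71 in wild-type cells on day 5. The groups did not overlap, and the log2 change was 1.06 ± 0.18 (SE; adjusted p = 8.78e-05, limma). Ccnd3 was at its lowest on day 3 in both genotypes, at 10.8, 9.35 and 8.75 in mutant cells and 15.5, 17.6 and 19.5 in wild-type cells, without overlap (log2 change -0.83, limma adjusted p = 0.00201). On day 6 it stood at 35.3, 33.9 and 29.4 in mutant cells and 25.0, 26.1 and 29.2 in wild-type cells, which did not pass (limma adjusted p = 0.262).
Ccne1 was lower in every mutant than in every wild-type library on days 4, 5 and 6, and passed by adjusted p alone. On day 4 it stood at 18.6, 20.8 and 18.3 in mutant cells and 30.4, 32.5 and 32.3 in wild-type cells (log2 change -0.71, limma adjusted p = 3.26e-05). On days 5 and 6 the log2 change was -0.51 and -0.59 (limma adjusted p = 0.000883 and 0.000162). On day 3 the same gene had 0.09 (limma adjusted p = 0.649).

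**Figure D3:**
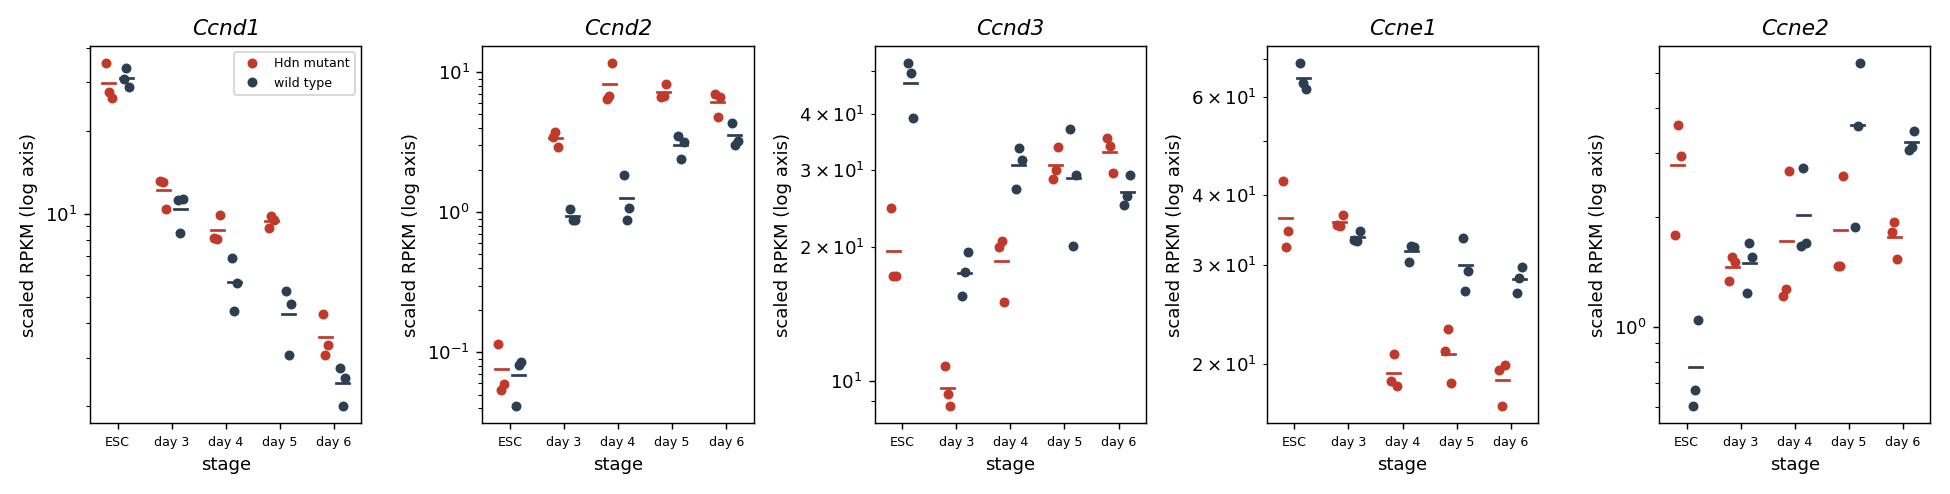
Levels of the D and E cyclins by stage, in scaled RPKM on log axes whose range differs between panels, with 1 point per library, a line at the mean of 3 and mutant on the left of each pair. Mutant points of Ccnd2 lie above the wild-type points from day 3, and mutant points of Ccne1 lie below them in ESCs and from day 4.

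Dlgap5 was called higher in mutants in ESCs and on days 3, 4 and 5, and genes around it on the chromosome were higher too. The files' build is mm10, and RefSeq coordinates are of GRCm38, the same assembly. Dlgap5 (ENSMUSG00000037544, chr14:47387779-47418407) stood at 29.9, 31.1 and 29 in mutant cells and 7.05, 6.36 and 7.54 in wild-type cells on day 3, a log2 change of 2.03 ± 0.14 (SE; adjusted p = 1.77e-09, limma). On day 4 it stood at 41.1, 34.7 and 24.5 in mutant cells and 8.87, 7.67 and 8.08 in wild-type cells, a log2 change of 1.94 ± 0.14 (SE; adjusted p = 3.7e-09, limma). On day 5 it stood at 22.3, 20.6 and 18.3 in mutant cells and 8.39, 7.86 and 7.39 in wild-type cells, a log2 change of 1.32 ± 0.14 (SE; adjusted p = 4.16e-07, limma). The groups lay far apart on all 3 days.
Of 9 other genes tested within 500 kb, 3 were called higher in ESCs, 7 on day 3, 7 on day 4, 5 on day 5 and 3 on day 6. The 7 of day 3 were Gch1, Wdhd1, Socs4, Mapk1ip1l, Fbxo34, Atg14 and Ktn1. Mapk1ip1l, 64.6 kb away, averaged 90.5 in mutant cells and 29.9 in wild-type cells on day 3. Ktn1, 229.9 kb away, averaged 10.5 in mutant cells and 2.79 in wild-type cells. Lgals3, the nearest at 1.6 kb, was called lower in ESCs and on days 5 and 6, and Gch1 was called lower on days 5 and 6. These neighbours were looked at after the Dlgap5 values were seen.
Over 36 genes that start between 45 and 50 Mb on chromosome 14, the median log2 change on day 3 was 1.07. It was 0.42 for 165 genes before 45 Mb, 0.56 for 118 genes from 50 to 60 Mb and -0.61 for 168 genes beyond 60 Mb. Between 45 and 50 Mb the median was 0.47 in ESCs and 1.31, 1.03 and 0.85 on days 4, 5 and 6, and beyond 60 Mb it was negative at all 5 stages, between -0.61 and -0.50. With the median change of genes within 2.5 Mb removed from every gene, Dlgap5 had 0.83 on day 3, 0.82 on day 4 and 0.55 on day 5, each under the size of a call, while its ESC call was kept. DNA copy number was not analysed here, and the cause of the regional difference was not tested.

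**Figure D4:**
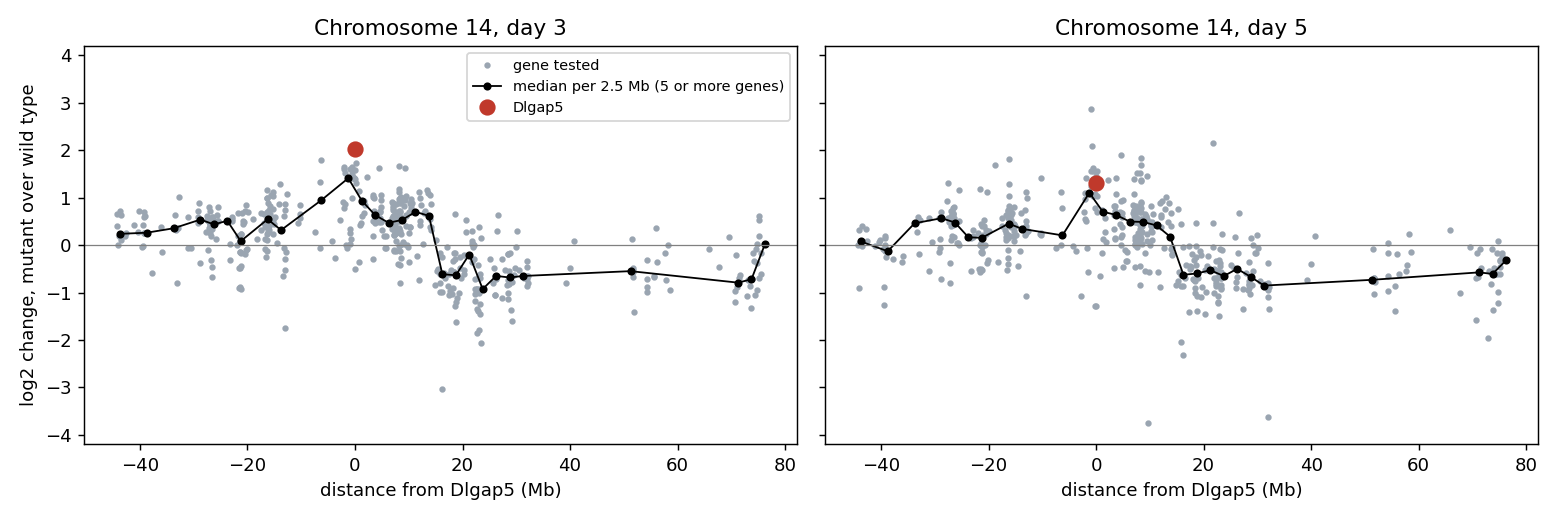
Log2 change, mutant over wild type, of 487 genes of chromosome 14 on days 3 and 5 by distance of their start from that of Dlgap5 in Mb, with the median per 2.5 Mb where it holds 5 or more genes. The median is highest beside Dlgap5 and turns from positive to negative about 15 Mb to the right of it.

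Chromosome 8 also differed as a whole, and 3 replication genes lie on it. Its 742 genes had a median log2 change of -0.40 in ESCs, -0.41 on day 3, -0.41 on day 4, -0.33 on day 5 and -0.36 on day 6, mutant over wild type. The medians of the other 19 chromosomes lay between -0.26 and 0.12 in ESCs and between -0.07 and 0.26 at the later stages. The 3 genes were Mcm5 (ENSMUSG00000005410, chr8:75109468-75128439), Cdt1 (ENSMUSG00000006585, chr8:122568015-122573130) and Gins2 (ENSMUSG00000031821, chr8:120581266-120589075), the last a subunit of the GINS complex of the helicase.
In ESCs Mcm5 had -1.03 beside a median of -0.39 over its neighbours within 2.5 Mb, Cdt1 -0.97 beside -0.59 and Gins2 -0.96 beside -0.59. On day 4 Cdt1 had -1.06 beside -0.54 over 75 neighbours. With the neighbours' change removed, Mcm5 in ESCs had -0.71 (limma adjusted p = 7.52e-05), Cdt1 on day 4 had -0.60 (limma adjusted p = 0.0596), and neither was called. The same removal took Ccnd3 in ESCs to -0.99 and Ccne2 to 0.60, so that no replication gene was called in ESCs. All 8 mitosis genes were still called, with log2 changes between 1.1 for Kif11 and 2.13 for Top2a. Ccnd2, on chromosome 6, had 8 tested neighbours within 500 kb, of which 1 was called, as lower on day 4, and its calls on days 3, 4 and 5 were kept under the removal.

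The first step of the course sets day 3 against undifferentiated ESCs. In wild-type cells 7 replication genes fell and 1 rose, while 6 mitosis genes rose and 2 fell, where 17.4% of all genes rose and 20.3% fell. The medians were -0.80 for the replication and 0.25 for the mitosis genes, beside 0.00 for all genes.
Cdc6, a loader of the Mcm ring, stood at 9.46, 8.43 and 8.47 on day 3 and 32.1, 35.7 and 34.4 in wild-type ESCs, a log2 change of -1.90 ± 0.13 (SE; adjusted p = 6.75e-12, limma). Cdc45 stood at 20.6, 21.6 and 21.8 on day 3 and 67.1, 67.3 and 64.9 in ESCs, a log2 change of -1.62 ± 0.08 (SE; adjusted p = 6.51e-15, limma). Neither gene's groups overlapped. Mcm5 averaged 137 ± 15.0 on day 3 and 419 ± 51.2 in ESCs, a log2 change of -1.61 ± 0.15 (SE; adjusted p = 1.49e-09, limma). Mcm3 averaged 86.1 ± 10.4 on day 3 and 254 ± 16.2 in ESCs, a log2 change of -1.56 ± 0.16 (SE; adjusted p = 6.18e-09, limma). Both promoters are printed above, where they were chosen with E2F matches and levels in view, and a link was not tested. Cdc6 has an E2F match too, while Cdc45, Mcm2 and Ccnd3 have none. Mcm6, Mcm7 and Cdt1 have matches but were not called in this step. Mcm2, Ccnd1 and Ccnd3 also fell, and Ccnd2 rose, with a log2 change of 1.34 ± 0.20 (SE; adjusted p = 2.21e-06, limma). The size of that change depends on the pseudocount, since Ccnd2 was near 0 in ESCs, and it was 0.86 with a pseudocount of 1. With the neighbours' change removed Mcm3 had -0.78 and was not called.
Mki67 stood at 3.78, 4.86 and 4.35 on day 3 and 0.478, 0.459 and 0.630 in wild-type ESCs, a log2 change of 2.24 ± 0.21 (SE; adjusted p = 1.18e-09, limma). Bub1 stood at 12.3, 12.3 and 12.6 on day 3 and 2.93, 2.77 and 4.2 in ESCs, a log2 change of 1.78 ± 0.17 (SE; adjusted p = 2.55e-09, limma). In both genes all day 3 libraries lay above all ESC libraries. Nusap1 and Cenpf rose with log2 changes of 1.64 and 1.61 (limma adjusted p = 7.46e-08 and 1.2e-07), and Cenpe and Kif11 rose too, Kif11 with 1.17, which was 0.48 with the neighbours' change removed. Kif20a, a kinesin of cytokinesis, fell, at 7.06, 4.47 and 8.27 on day 3 and 40.8, 46.2 and 42.0 in ESCs, a log2 change of -2.65 ± 0.40 (SE; adjusted p = 2.38e-06, limma). Bub1b, a checkpoint protein, fell as well, with a log2 change of -1.21 ± 0.12 (SE; adjusted p = 3.46e-09, limma), and with the neighbours' change removed it had -0.97 and was not called.

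In mutants the same step lowered Mcm2, Cdc6 and Ccnd1 and raised Ccnd2 among the replication genes, and raised Plk1 and lowered Kif20a among the mitosis genes, where 18.2% of all genes rose and 21.6% fell. Ccnd2 had a log2 change of 2.75 ± 0.20 (SE; adjusted p = 1.13e-11, limma) and Cdc6 of -1.35 ± 0.13 (SE; adjusted p = 2.59e-09, limma). Ccnd1 had -1.25 and Mcm2 -1.14 (limma adjusted p = 9e-07 and 1.16e-05). Kif20a stood at 12.1, 11.5 and 8.14 on day 3 and 44.4, 44.3 and 44.8 in mutant ESCs, without overlap, a log2 change of -2.04 ± 0.40 (SE; adjusted p = 7.02e-05, limma). Plk1, a kinase of mitotic entry and exit, stood at 191, 174 and 167 on day 3 and 112, 72.4 and 77.9 in mutant ESCs, a log2 change of 1.04 ± 0.21 (SE; adjusted p = 0.000138, limma) that fell under the size of a call in 7 of 22 alternatives.
The difference between the 2 steps was itself tested. It was called for 3 replication genes, 2 more positive and 1 more negative in mutants, and for 5 mitosis genes, all more negative, where 2.13% of all genes were more positive and 7.39% more negative. As a set the mitosis genes were split, with 12 positive and 8 negative values and a median of 0.19, beside 0.04 for all genes. By adjusted p alone 6 mitosis genes passed as more positive and 6 as more negative, and 9 and 2 replication genes did. The share of all genes by that rule was not counted. Kif11 had a difference of -1.60 ± 0.25 (SE; adjusted p = 7.38e-05, limma), and its mean was 12 on day 3 and 16.8 in ESCs for mutants, and 8.55 on day 3 and 3.62 in ESCs for wild type. Bub1 had -1.13 ± 0.24 (SE; adjusted p = 0.00152, limma), Mki67 -1.29 ± 0.29 (SE; adjusted p = 0.00248, limma), Cenpf -1.20 ± 0.28 (SE; adjusted p = 0.00287, limma) and Cenpe -1.13 ± 0.27 (SE; adjusted p = 0.00352, limma). Among the replication genes Cdc45 had 1.05 ± 0.11 (SE; adjusted p = 6.18e-07, limma), Ccnd2 1.41 ± 0.28 (SE; adjusted p = 0.000766, limma) and Ccne2 -1.36 ± 0.38 (SE; adjusted p = 0.0119, limma). With the neighbours' change removed Kif11 had -0.68, Cdc45 0.94 and Ccne2 -0.86, and these 3 were not called. These tests share their libraries with the ESC and day 3 comparisons above. Without mutant ESC replicate 2, 2 mitosis genes were more negative in place of 5.

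From day 3 to day 6 few of the 40 genes passed the size threshold. In wild type Ccnd1 fell, with a log2 change of -1.89 ± 0.18 (SE; adjusted p = 7.48e-09, limma), Ccnd2 rose, with 1.48 ± 0.20 (SE; adjusted p = 1.98e-06, limma), and no mitosis gene was called, where 8.95% of all genes rose and 4.95% fell. In mutants Ccnd1 fell, with -1.65 ± 0.18 (SE; adjusted p = 3.64e-08, limma), Ccnd3 rose, with 1.72 ± 0.18 (SE; adjusted p = 2.52e-08, limma), and Bub1 fell, with -1.12 ± 0.17 (SE; adjusted p = 8.4e-06, limma), where 12% of all genes rose and 5.58% fell. Bub1 stood at 10.8, 8.51 and 9.10 on day 6 and 21.4, 21.2 and 20.7 on day 3 in mutants, without overlap. Whatever the size of the change, 16 of 20 mitosis genes passed as lower and 0 as higher in mutants, where 21.3% and 26.6% of all genes did, and 7 of 20 as lower and 0 as higher in wild type, where 18.6% and 23.8% did. The median of the replication genes was -0.51 in mutants and -0.48 in wild type, and that of the mitosis genes -0.62 in mutants and -0.22 in wild type.
The step itself differed between genotypes for Ccnd3, at 1.12 ± 0.25 (SE; adjusted p = 0.00369, limma), and Dlgap5, at -1.04 ± 0.20 (SE; adjusted p = 0.00105, limma), where 4.35% of all genes were more positive and 2.85% more negative. At any size of difference 4 mitosis genes passed as more negative in mutants and 0 as more positive, against 6.91% and 8.03% of all genes. The Dlgap5 call was lost on leaving out mutant day 6 replicate 3, and likewise replicate 2 of wild-type day 3 or of wild-type day 6. With the neighbours' change removed Dlgap5 had -0.53 (limma adjusted p = 0.201) and was not called. Over all 5 stages, an F test of a mutant difference that depends on stage passed at a limma adjusted p under 0.05 for 11 replication genes, 13 mitosis genes and 42.2% of all genes. The lowest adjusted p were 2.55e-06 for Cdc45 and 6.16e-06 for Kif11, and the highest was 0.99 for Gins1.

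By means over their genes, though not by medians, replication and mitosis were furthest apart in wild-type ESCs. The mean log2 level of the 20 replication genes minus that of the 20 mitosis genes was 0.66, 0.26 and 0.31 in mutant ESCs, against 1.36, 1.37 and 1.23 in wild-type ESCs. On day 3 it was -0.20, -0.20 and -0.23 in mutant cells and 0.27, 0.23 and 0.31 in wild-type cells. On day 4 it was -0.43, -0.26 and -0.14 in mutant cells and 0.16, 0.15 and 0.18 in wild-type cells. On day 5 it was 0.04, 0.15 and 0.09 in mutant cells and 0.35, 0.22 and 0.40 in wild-type cells, and on day 6 0.01, 0.06 and 0.01 in mutant cells and 0.14, 0.17 and 0.32 in wild-type cells. By these means the mutant libraries lay below the wild-type libraries at all 5 stages. With medians over the genes in place of means, the gap between genotypes in ESCs was -0.43 instead of -0.91, and the genotypes overlapped on days 5 and 6. Wild-type ESCs then had 0.633, 0.515 and 0.432, and mutant day 4 cells had -0.793, -0.499 and -0.408, about as far from 0. By medians day 5 had 0.02 to 0.14 in mutant and 0.05 to 0.48 in wild-type libraries, and day 6 had -0.01 to 0.21 in mutant and 0.10 to 0.49 in wild-type libraries.

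**Figure D5:**
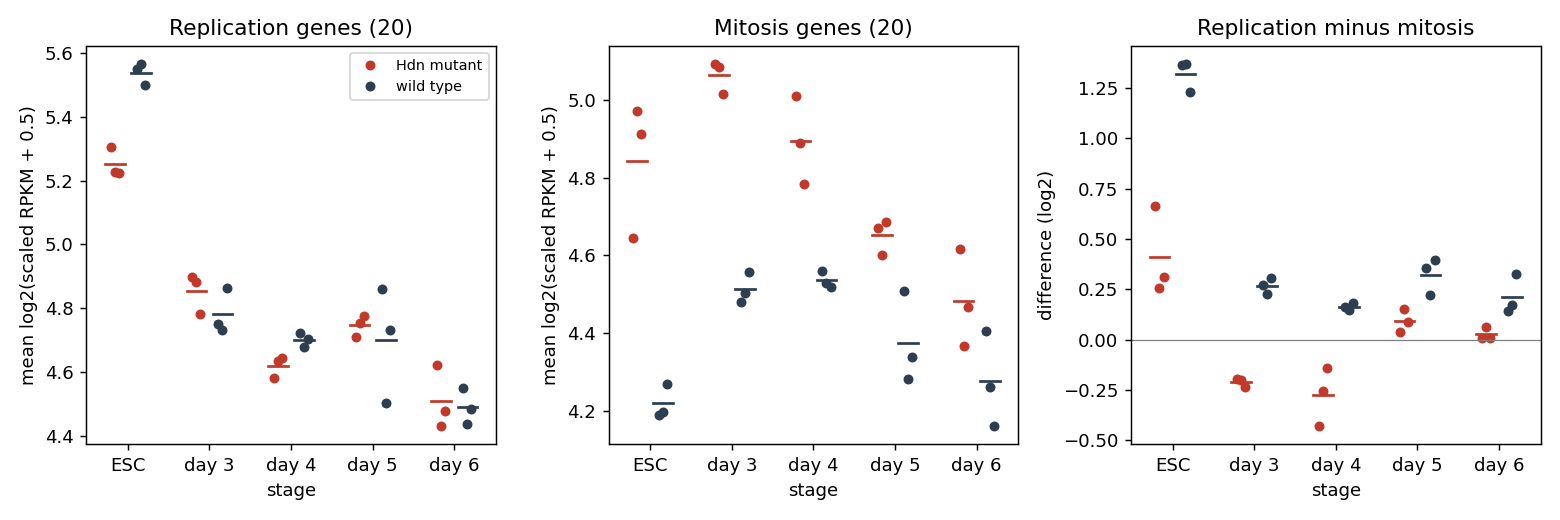
Mean log2(scaled RPKM + 0.5) of the 20 replication genes and of the 20 mitosis genes in each library, and their difference, by stage, with a line at the mean of 3 and mutant on the left of each pair. Wild-type ESCs stand apart in the panel of differences, which with medians over genes did not hold. The mutant points in that panel lie below the wild-type points at every stage, which with medians over genes did not hold on days 5 and 6.

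The wider pathway shows the setting of these genes. Of 40 other mitosis genes 17 were called higher in mutant ESCs and 0 lower, against 8.55% and 3.13% of all genes, with a median log2 change of 0.41. Smc2, a condensin subunit, averaged 11.5 in mutant ESCs and 1.63 in wild-type ESCs, a log2 change of 2.46 (limma adjusted p = 1.7e-10). Kif20b, Hmmr and Ttk had log2 changes of 2.45, 1.94 and 1.62. Among 39 other replication genes, mutant ESCs had 8 called higher and 0 lower. Dbf4, the activator of the kinase Cdc7, had 1.51, the clamp loader subunit Rfc1 1.71, the origin subunit Orc2 1.30 and Wdhd1, a replication fork protein and neighbour of Dlgap5, 1.14. On days 3, 4 and 5 Wdhd1 alone of the 39 was called, as higher. None of the 40 other mitosis genes was called in limma on days 3 to 6, while by adjusted p alone 17 passed as higher on day 3, 8 on day 4, 4 on day 5 and 0 on day 6. Of all genes 6.2% passed so on day 3, 11.2% on day 4, 9.92% on day 5 and 12.3% on day 6, so the day 5 count is near that share and the day 6 count below it.
Mutant ESCs had 3 of 32 tested cell cycle regulators called higher and 1 lower, near the 8.55% and 3.13% of all genes. Fbxo5, an inhibitor of the anaphase-promoting complex, averaged 55.2 in mutant ESCs and 18.1 in wild-type ESCs, a log2 change of 1.54 (limma adjusted p = 1.31e-08). The checkpoint kinase gene Chek1 had 1.58, Lin54, a subunit of a complex that binds CHR elements, 1.15 and the inhibitor Cdkn2c -1.35. On day 3, 3 of the 32 were called lower, all kinase inhibitor genes, and 0 higher. Of all genes 2.48% were called lower and 0.873% higher. Cdkn2a averaged 4.30 in mutant cells and 36.1 in wild-type cells, a log2 change of -2.93 (limma adjusted p = 8.75e-08), and Cdkn2b and Cdkn1c had -1.43 and -1.51. On day 4 Mybl2, a transcription factor of cell cycle genes, had -1.37, Cdkn2a -1.61 and Cdkn1c -1.72. These 3 of 32 were called lower and 0 higher, against 2.81% and 2.37% of all genes. On day 5 Cdkn2b was higher (1.11) and Cdkn1c lower (-1.51), and on day 6 Cdkn2b was higher (1.01) and Myc lower (-1.16). That was 1 of 32 higher and 1 lower on each day. Those counts are near the shares of all genes, 2.42% higher and 3.59% lower on day 5 and 3.66% and 4.12% on day 6.
Of 12 p53 target and quiescence genes, Ccng1 (1.43), Trp53inp1 (1.58), Pmaip1 (1.48) and Mdm2 (1.04) were higher and Phlda3 (-1.11) lower in mutant ESCs. Of all genes 8.55% were called higher and 3.13% lower there. On day 4 Trp53inp1 alone of the 12 was called, as higher (1.08), where 2.37% of all genes were. On day 6 Btg2 alone was called, as lower (-1.24), where 4.12% of all genes were.
In wild type the step to day 3 lowered 14 and raised 2 of the 39 other replication genes, against 20.3% of all genes lowered and 17.4% raised, among them Mcm10 (-1.93), Ticrr (-2.49), Uhrf1 (-2.60) and Orc1 (-1.22). It raised 10 and lowered 6 of the 40 other mitosis genes, shares near the 17.4% and 20.3% of all genes, among them Ndc80 (1.87), Hmmr (1.92), Nuf2 (1.42) and Smc4 (2.59), which rose, and Nek2 (-1.04) and Incenp (-1.17), which fell and were added after their values were seen. Mybl2 averaged 45.7 on day 3 and 289 in wild-type ESCs, and Cdk2 6.99 on day 3 and 38.1 in wild-type ESCs, log2 changes of -2.65 and -2.37 (limma adjusted p = 8.6e-13 and 4.39e-15).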

How the data were processed

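RNA of 30 samples of mouse ESCs was sequenced after ScriptSeq library preparation, per the labels' protocols. The submitters' processing notes name STAR, DESeq2, BWA, SAMtools and mm10, with no versions or roles. The sources used here name no annotation and no strand setting. The authors deposited 1 table of RPKM per gene, not read counts. Each gene's RPKM came out at whole reads at a common gene length, for 35161 of 35161 genes above 0, within 0.001 reads, and this gave read totals and gene lengths. Ensembl IDs were matched to symbols for 52403 of 52636 genes. RPKM was divided by median-ratio size factors over 11618 genes (0.888 to 1.106), kept at 1 or more in at least 3 libraries (14196 genes), and log2-transformed with a pseudocount of 0.5. The limma test (version 3.58.1 in R 4.3.3) with a mean-variance trend fitted 1 mean per group over all 30 libraries, with two-sided p-values adjusted by Benjamini and Hochberg over all genes tested. In each comparison the 4 called genes of lowest adjusted p per set and direction are given in full, and other lists as counts with up to 4 called genes. Genes such as Cdk1, Cdc20, Mcm4, Cdc45 and the cyclins beyond that rule were chosen after their values were seen. Alternatives were other scalings, filters, pseudocounts, fits and left-out libraries, and, added after seeing the data, voom on derived reads, a gene length trend and the removal of neighbours' change. The procedure was tested on simulated data. The members and gene lists were chosen with earlier results of these data known. The labels also list 3 4C samples and 1 heart sample, which were not analysed here.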

Additional observations from a re-analysis of the deposited data

Results flagged for a closer look

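A total of 10 changes between stages differed between mutant and wild type by the test of the difference itself, and all are log2 differences, the mutant change minus the wild-type change. From ESCs to day 3 the difference was 1.05 for Cdc45, 1.41 for Ccnd2 and -1.36 for Ccne2 among the replication genes. Over the same step it was -1.60 for Kif11, -1.29 for Mki67, -1.20 for Cenpf, -1.13 for Bub1 and -1.13 for Cenpe. From day 3 to day 6 it was 1.12 for Ccnd3 and -1.04 for Dlgap5. The limma adjusted p of these tests ran from 6.18e-07 to 0.0119. Of all genes 2.13% were more positive and 7.39% more negative in mutants from ESCs to day 3. From day 3 to day 6 the shares were 4.35% and 2.85%, beside 1 gene called in each set of 20. With the change of neighbouring genes removed, Dlgap5 had -0.53 (limma adjusted p = 0.201), Kif11 -0.68, Cdc45 0.94 and Ccne2 -0.86, and these 4 were not called.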

How the results depend on the processing

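Of 56 called results for single genes, 31 kept their direction and call in every alternative that could be run and 0 reversed. The 8 mitosis genes called in ESCs and Ccnd2 on days 3 and 4 were among those kept, and the ESC calls of Ccne2 and Ccnd3 and the calls of Dlgap5 on days 3, 4 and 5 were lost only with the neighbours' change removed. The replicate block, with the replicate number of the titles in the model, gave 8 mitosis genes higher in ESCs and moved no count past 1.5 times. Replicate numbers showed no steady pairing of the libraries: deviations of same-numbered libraries correlated between -0.57 and 0.57. In 1 of 9 comparisons, day 6 against day 3 in mutants, every r was over 0.1. Differently numbered libraries were not compared, so pairing is not excluded. With every library at the same sum, the median of all genes moved by over 0.1 for the step to day 3 (-0.2 in wild type, -0.3 in mutants), the step from day 3 to day 6 in wild type (0.17) and its difference between genotypes (-0.12), and with quantile normalization for the mutant step from day 3 to day 6 (-0.11). Removal of a protein length trend was not run, and without the heart libraries the day 6 comparisons cannot be made. The 3 libraries per group limit the precision of every value. The counts and differences that moved follow, each after its value as reported, and their causes were not tested. Replication minus mitosis changed sign with medians over genes in the difference between the genotypes' steps to day 3, at -0.05, and in the wild-type step from day 3 to day 6, at 0.12.

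In ESCs, mutant over wild type, replication genes called higher numbered 1, and 3 by adjusted p alone, 0 with a filter of 5 and without the neighbours' change, 2 without the length trend, with no scaling, with only the libraries compared, with quantile normalization, at the same sum and at the same sum without mitochondrial genes and 1 to 2 with 1 library left out. The filter of 5 left Ccne2 untested, so the 0 there is not a lost call. There were 2 replication genes called lower, and 12 by adjusted p alone, 0 without the neighbours' change, 1 with no scaling, with only the libraries compared, with quantile normalization, at the same sum and at the same sum without mitochondrial genes, 4 with voom and 1 to 4 with 1 library left out. There were 0 mitosis genes called lower, and 4 by adjusted p alone and 0 to 1 with 1 library left out. Replication minus mitosis, as the difference of their means, was -0.91, and -0.43 with medians over genes, -0.66 without the neighbours' change and -1.08 with voom.
On day 3, mutant over wild type, replication genes called lower numbered 0, and 1 by adjusted p alone. The mitosis genes called higher numbered 1, and 10 by adjusted p alone and 0 without the neighbours' change. For the mean of replication minus mitosis genes it was -0.48, and -0.28 without the neighbours' change.
On day 4, mutant over wild type, replication genes called higher numbered 1, and 2 by adjusted p alone. A count of 1 was found for replication genes called lower, and 4 by adjusted p alone, 0 without the neighbours' change, with only the libraries compared and without the heart libraries and 0 to 1 with 1 library left out. A count of 1 was found for mitosis genes called higher, and 5 by adjusted p alone and 0 without the neighbours' change. The difference of the means, replication minus mitosis, was -0.44, and -0.75 with medians over genes and -0.23 without the neighbours' change.
On day 5, mutant over wild type, replication genes called higher numbered 2, and 1 at a pseudocount of 1, at the same sum and at the same sum without mitochondrial genes and 0 to 2 with 1 library left out. For replication genes called lower the count was 0, and 1 by adjusted p alone and 0 to 1 with 1 library left out. For mitosis genes called higher the count was 1, and 3 by adjusted p alone and 0 without the neighbours' change. As a difference of means, replication minus mitosis was -0.23, and -0.13 without the neighbours' change.
On day 6, mutant over wild type, replication genes called higher numbered 0, and 3 by adjusted p alone. There were 0 replication genes called lower, and 2 by adjusted p alone. There were 0 mitosis genes called higher, and 2 by adjusted p alone, 1 at a pseudocount of 0.1, with quantile normalization and with voom and 0 to 1 with 1 library left out. Replication minus mitosis, as the difference of their means, was -0.19, and -0.09 without the neighbours' change.
From ESCs to day 3 in wild type, replication genes called higher numbered 1, and 2 by adjusted p alone and 0 with only the libraries compared and at a pseudocount of 1. The replication genes called lower numbered 7, and 14 by adjusted p alone and 11 at the same sum. For this step the share of all genes that passed by adjusted p alone was not counted, so these counts have no such share beside them. The mitosis genes called lower numbered 2, and 5 by adjusted p alone. For the mean of replication minus mitosis genes it was -1.05, and -0.99 with a filter of 5, -0.35 with medians over genes and -1.15 with only the libraries compared.
From ESCs to day 3 in mutants, replication genes called higher numbered 1, and 2 by adjusted p alone. Here too the share of all genes that passed by adjusted p alone was not counted. A count of 3 was found for replication genes called lower, and 13 by adjusted p alone, 6 with quantile normalization, 7 at the same sum and at the same sum without mitochondrial genes and 2 to 5 with 1 library left out. A count of 1 was found for mitosis genes called higher, and 9 by adjusted p alone, 2 without the length trend, at a pseudocount of 0.1 and with quantile normalization, 5 without the neighbours' change, 3 with only the libraries compared and with voom, 0 at the same sum and at the same sum without mitochondrial genes and 0 to 2 with 1 library left out. A count of 1 was found for mitosis genes called lower, and 4 by adjusted p alone. The difference of the means, replication minus mitosis, was -0.62, and -0.4 with medians over genes.
From day 3 to day 6 in wild type, replication genes called higher numbered 1, and 3 by adjusted p alone and 2 at a pseudocount of 0.1, at the same sum, at the same sum without mitochondrial genes and with voom. For replication genes called lower the count was 1, and 11 by adjusted p alone. For mitosis genes called lower the count was 0, and 7 by adjusted p alone. As a difference of means, replication minus mitosis was -0.05, and 0.12 with medians over genes.
From day 3 to day 6 in mutants, replication genes called higher numbered 1, and 2 by adjusted p alone. There was 1 of the replication genes called lower, and 13 by adjusted p alone and 3 without the length trend and without the neighbours' change. There was 1 of the mitosis genes called lower, and 16 by adjusted p alone and 5 without the length trend. Replication minus mitosis, as the difference of their means, was 0.24, and 0.41 with medians over genes and 0.08 without the neighbours' change.
In the difference of the steps to day 3, replication genes called higher numbered 2, and 9 by adjusted p alone and 1 without the neighbours' change, with no scaling, with quantile normalization, at the same sum without mitochondrial genes and with voom. Again the share of all genes that passed by adjusted p alone was not counted. The replication genes called lower numbered 1, and 2 by adjusted p alone and 0 with a filter of 5 and without the neighbours' change. The mitosis genes called higher numbered 0, and 6 by adjusted p alone, 2 without the neighbours' change, 1 at a pseudocount of 0.1 and with voom and 0 to 1 with 1 library left out. The mitosis genes called lower numbered 5, and 3 with a filter of 5 and without the length trend, 2 at a pseudocount of 1 and 2 to 7 with 1 library left out. With a filter of 5, Ccne2, Cenpe and Cenpf were not tested. For the mean of replication minus mitosis genes it was 0.43, and -0.05 with medians over genes, 0.59 with voom and 0.36 to 0.56 with 1 library left out.
In the difference of the steps from day 3 to day 6, replication genes called higher numbered 1, and 0 at the same sum and at the same sum without mitochondrial genes. A count of 0 was found for replication genes called lower, and 2 by adjusted p alone and 1 with voom. A count of 1 was found for mitosis genes called lower, and 4 by adjusted p alone, 0 without the neighbours' change and 0 to 1 with 1 library left out. The difference of the means, replication minus mitosis, was 0.29, and 0.19 without the neighbours' change.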
